A study of Homo sapiens with 35 samples.

Results

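The IFIT genes, read here across leukaemia lines, are 4 neighbouring interferon-stimulated genes on human chromosome 10. The members were chosen by name, as IFIT1, IFIT2, IFIT3 and IFIT5, and all 4 were found among the 59428 gene rows of the deposited count tables. The study measured polyadenylated RNA in 35 libraries of 4 acute myeloid leukaemia cell lines given guide RNAs against SUV39H1 alone (labelled SKO), against SUV39H1 and SUV39H2 together (labelled DKO), or a control guide (labelled sgControl). SUV39H1 and SUV39H2 are enzymes that trimethylate histone H3 at lysine 9, a mark of silenced chromatin.

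The libraries fall into 13 groups. U937 and THP-1, both monocytic lines, each had sgControl, SKO and DKO groups, and U937 had the same guide labels again after TPA, a phorbol ester that drives monocytic cells towards a macrophage-like state. These are 9 groups of 3 libraries. MOLM-13 had sgControl and SKO, and OCI-AML-3 only the sgControl and DKO labels, which are 4 groups of 2 libraries. Every group carries a guide, so no group is an unedited line, and the labels used here give no TPA dose or time. The column names of the untreated U937 and THP-1 table mark the THP-1 sgControl and SKO cells and the U937 DKO cells as clones. A date-like code in those names differs between THP-1 DKO and the other THP-1 groups and is missing for U937 DKO. Code and guide label therefore cannot be told apart in the untreated DKO comparisons of these lines. Clone and guide label cannot be told apart where a group is marked as a clone. U937 sgControl and SKO share a code and neither is marked as a clone. Those names also give a different SUV39H2 guide for U937 DKO than for THP-1 DKO. The labels do not say that the replicates were separate cultures, so the p-values reflect only how far the libraries of a group spread, possibly for technical reasons.

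IFIT proteins are built of tetratricopeptide repeats and act against viral RNA. IFIT1 binds messenger RNA whose 5′ cap lacks ribose methylation and blocks its translation, IFIT3 stabilises IFIT1 and completes a complex with IFIT2, and IFIT5 binds RNA with a 5′ triphosphate. Type I interferons act through the receptors IFNAR1 and IFNAR2 and the kinases JAK1 and TYK2 to activate transcription factors, STAT2 and IRF9 among them, that bind a DNA element called ISRE in the promoters of such genes. IRF3 can also act on the same element after virus or double-stranded RNA is sensed.

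In the annotation of the count tables (GENCODE 38, hg38), all 4 genes lie on the plus strand of chromosome 10. IFIT2 spans 89283694 to 89309271, IFIT3 spans 89327307 to 89377473, IFIT1 spans 89392546 to 89406487, and IFIT5 spans 89414568 to 89421605. The paralog IFIT1B, which is no member, sits between IFIT3 and IFIT1. Promoters are printed to show where the core of the ISRE, the element named above, lies in the members that have an entry. They come from RefSeq (GRCh38.p14), where 3 of the 4 members had an entry, IFIT3 with 2 start sites and IFIT2 with none. Each run is the 250 bases before the start site, 5′ to 3′ on the plus strand: chr10:89392373-89392622 for IFIT1, chr10:89327747-89327996 and chr10:89332279-89332528 for the starts of IFIT3, and chr10:89414318-89414567 for IFIT5. Capitals mark the core of the ISRE, searched as GAAANNGAAA and, on the other strand, TTTCNNTTTC.
IFIT1: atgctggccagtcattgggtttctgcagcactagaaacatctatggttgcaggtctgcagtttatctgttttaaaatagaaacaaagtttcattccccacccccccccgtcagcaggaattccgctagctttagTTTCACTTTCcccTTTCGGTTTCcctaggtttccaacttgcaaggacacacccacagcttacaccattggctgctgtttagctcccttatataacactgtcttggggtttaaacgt
IFIT3, first start: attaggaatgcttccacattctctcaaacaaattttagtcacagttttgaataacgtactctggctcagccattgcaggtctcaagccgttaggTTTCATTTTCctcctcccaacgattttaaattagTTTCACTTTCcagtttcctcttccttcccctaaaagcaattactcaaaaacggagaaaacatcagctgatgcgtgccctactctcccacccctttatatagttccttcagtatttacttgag
IFIT3, second start: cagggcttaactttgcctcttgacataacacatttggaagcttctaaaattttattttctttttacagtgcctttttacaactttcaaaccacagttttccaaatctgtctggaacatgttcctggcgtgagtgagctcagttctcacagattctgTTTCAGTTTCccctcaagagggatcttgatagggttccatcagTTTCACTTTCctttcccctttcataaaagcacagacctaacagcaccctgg
IFIT5: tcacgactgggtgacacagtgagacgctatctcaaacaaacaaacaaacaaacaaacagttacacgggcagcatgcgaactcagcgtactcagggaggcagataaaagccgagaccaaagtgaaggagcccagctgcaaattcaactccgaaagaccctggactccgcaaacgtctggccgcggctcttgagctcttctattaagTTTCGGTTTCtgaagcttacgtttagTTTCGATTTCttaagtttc

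Each of these windows held 2 matches, none overlapping another, and every match read TTTCNNTTTC on the plus strand. In IFIT1 the matches were TTTCACTTTC and TTTCGGTTTC, 116 to 107 and 103 to 94 bases before the start. In IFIT5 they were TTTCGGTTTC and TTTCGATTTC, 45 to 36 and 19 to 10 bases before the start. The core TTTCACTTTC was shared by IFIT1 and both starts of IFIT3. The same window of IFIT1B had no match. Over all RefSeq promoters of this length, 1061 of 35116 (3.02%) held a match on either strand, and by gene 1014 of 27305 (3.71%) did. Of 34 other interferon-stimulated genes listed for this report, 28 had a promoter entry and 19 of those (67.9%) held a match. A match describes the letters of the window and shows no binding.

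Depth ranged from 31985767 to 61178704 reads assigned to genes per library. Reads of a pair were counted one by one, so read counts are not counts of independent fragments. The 95% intervals of fold changes come from the fit and include the spread between libraries. Levels are given as CPM, the count of a gene relative to all counts of its library, scaled by the trimmed mean of M values over all libraries. Tests are edgeR's quasi-likelihood test within a line and treatment, or in 1 joint fit where lines or treatments are compared, with Benjamini-Hochberg adjustment over all genes tested and a threshold of 0.05. Of 9 myeloid markers at least 7 were at 1 CPM or more in every group. The summed markers of other types reached at most 11.2 CPM (B cell), 8.29 (megakaryocyte), 4.53 (T cell), 3.95 (stromal), 3 (erythroid), 0.869 (plasmacytoid dendritic) and 0.312 (epithelial). The plasmacytoid dendritic sum includes IL3RA, which had no counted reads in any group. SUV39H1 RNA did not follow every label. It was 66.3 ± 3.57 CPM (SD, n = 3) in U937 sgControl, 113 ± 3.58 in SKO and 83 ± 0.589 in DKO, and 35.3 ± 2.88, 95.5 ± 5.25 and 55.2 ± 0.647 CPM in the same THP-1 groups. In MOLM-13 it was 28.7 ± 1.55 CPM (SD, n = 2) in sgControl and 7.63 ± 0.626 in SKO, and in OCI-AML-3 35.8 ± 1.34 in sgControl and 3.48 ± 1.05 in DKO. After TPA it was 36.8 ± 1.08, 53.5 ± 2.83 and 22.3 ± 0.291 CPM (SD, n = 3) in sgControl, SKO and DKO. SUV39H2 RNA was 43 ± 2.14, 35.6 ± 0.889 and 32.8 ± 2.34 CPM in U937 sgControl, SKO and DKO, and 20.2 ± 0.723, 20.8 ± 0.408 and 9.91 ± 0.663 after TPA (SD, n = 3). In THP-1 it was 30.9 to 32.7 CPM in sgControl, 19.3 to 21.2 in SKO and 13.1 to 14.4 in DKO. It was 27.5 ± 1.57 CPM (SD, n = 2) in MOLM-13 sgControl and 12.3 ± 0.975 in SKO, and 24.1 ± 3.44 in OCI-AML-3 sgControl and 19.1 ± 2.01 in DKO. SUV39H2 was thus also lower in THP-1 SKO and MOLM-13 SKO, whose label names SUV39H1 alone. It lies on chromosome 10, as the IFIT genes do. Genes of that chromosome had a median log2 fold change against sgControl of -0.93 in THP-1 SKO and -0.92 in THP-1 DKO. The part of this in the SUV39H2 levels of THP-1 was not tested. RNA level does not show whether a guide disrupted the protein, and groups are therefore named by their labels throughout.

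All 4 members had their highest level in TPA-treated U937 DKO and their second highest in TPA-treated U937 SKO, followed by THP-1 sgControl and untreated U937 DKO, in that order for each gene. No library of these 4 groups overlapped its neighbour in the order. IFIT1 ranged from 0.196 CPM in MOLM-13 sgControl, which rests on 6 and 12 reads, to 1240 CPM in TPA-treated U937 DKO. IFIT2 ranged from 0.363 CPM in OCI-AML-3 sgControl (16 and 18 reads) to 1540 CPM, and IFIT3 from 0.932 CPM in MOLM-13 sgControl (34 and 50 reads) to 1880 CPM. IFIT5 reached 92.8 CPM in the same TPA-treated U937 DKO group. Its lowest group, MOLM-13 SKO, had 0 and 4 reads in its libraries.

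Below these 4 groups the order differed by gene and the libraries of neighbouring groups often overlapped. For IFIT1, TPA-treated U937 sgControl, THP-1 DKO, U937 sgControl and U937 SKO formed a run of overlapping groups between 2.74 and 1.87 CPM. The lowest 5 groups of IFIT1, from OCI-AML-3 DKO at 0.517 CPM to MOLM-13 sgControl, also overlapped one with the next, and THP-1 SKO lay among them at 0.233 CPM. In OCI-AML-3 IFIT3 stood at 6.61 CPM in sgControl and 6.23 CPM in DKO, and IFIT5 at 2.51 and 1.42 CPM, whereas IFIT1 and IFIT2 were at 0.363 to 0.517 CPM in those groups.

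**Figure D1:**
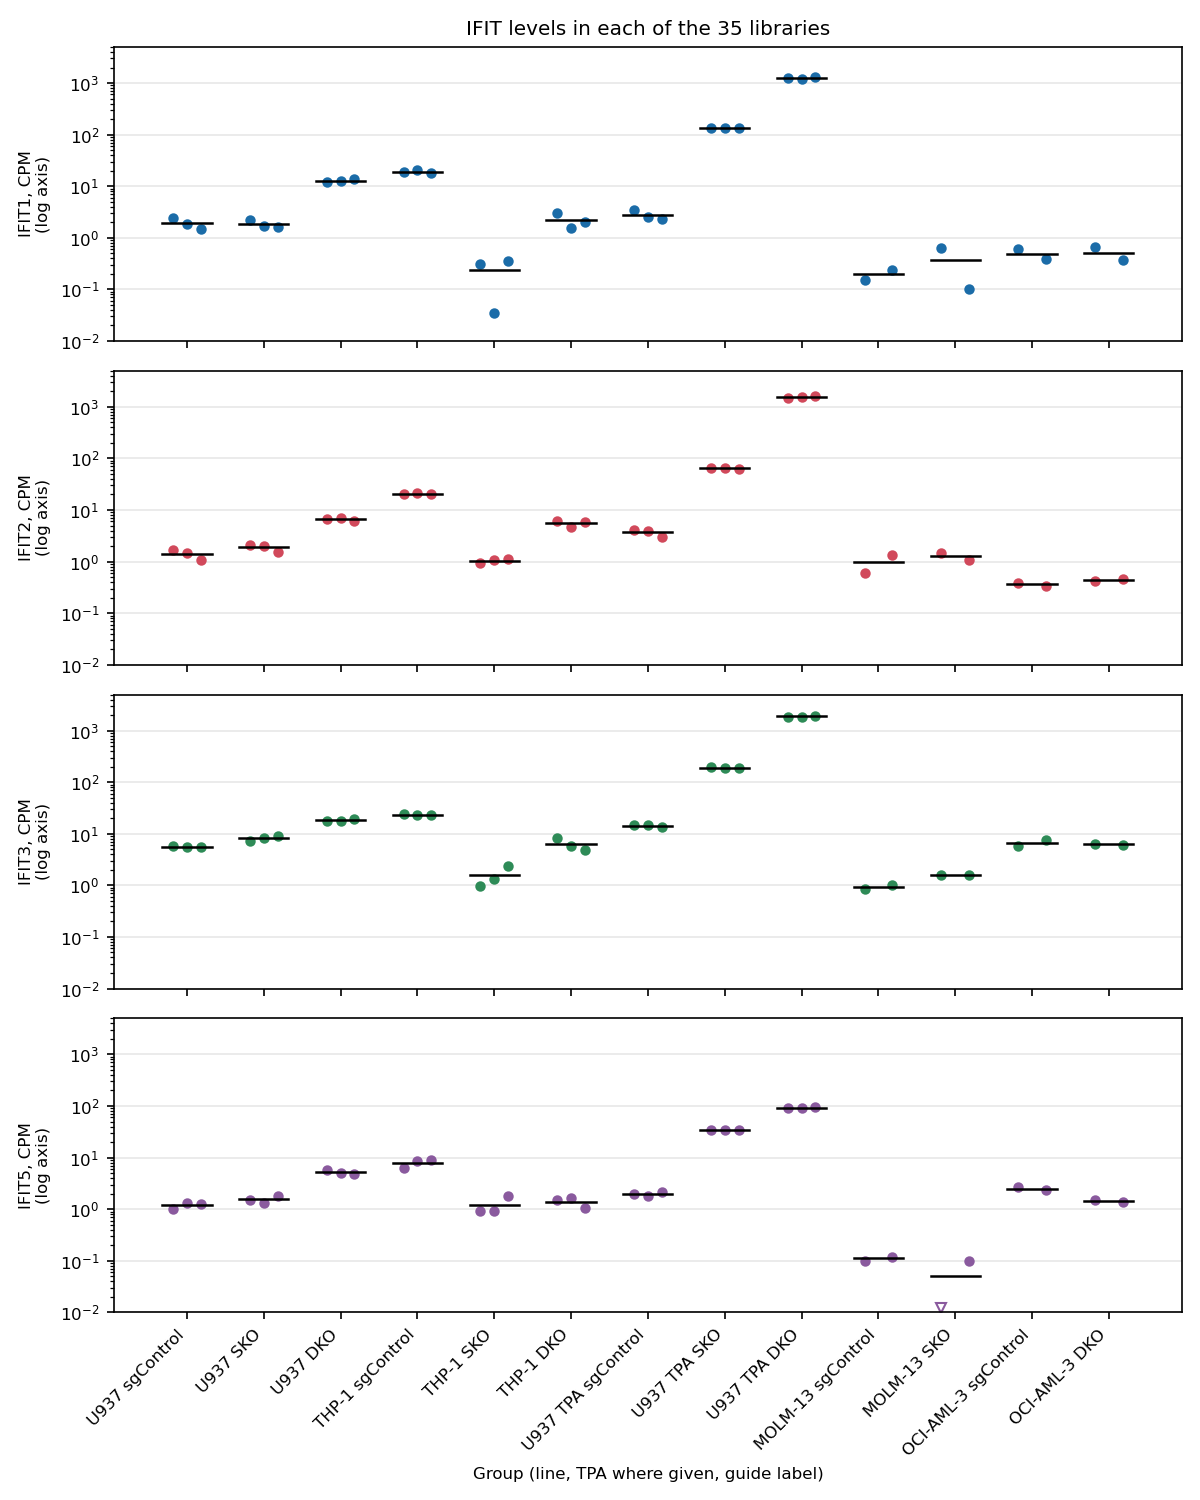
Level of each IFIT gene (CPM, log axis) in each library, by group; points are libraries, bars are group means, and an open triangle at the base marks a library with 0 reads. TPA-treated U937 DKO stands highest in every panel, and THP-1 SKO lies far below THP-1 sgControl.

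Per kilobase of annotated exons, which allows genes to be compared, IFIT3 had the highest mean level of the 4 members in every group but THP-1 sgControl, THP-1 DKO and MOLM-13 sgControl, where IFIT2 did. In THP-1 sgControl the levels per kilobase were 4.81 ± 0.168 for IFIT2, 4.66 ± 0.127 for IFIT3, 4.14 ± 0.235 for IFIT1 and 1.83 ± 0.329 for IFIT5 (CPM per kilobase, SD, n = 3). In TPA-treated U937 DKO they were 371 ± 12.4 for IFIT3, 357 ± 10.3 for IFIT2, 269 ± 11.9 for IFIT1 and 21.2 ± 0.259 for IFIT5. The summed level of the family was 2.14 ± 0.187 CPM per kilobase in U937 sgControl, 15.4 ± 0.475 in THP-1 sgControl and 1020 ± 32.5 in TPA-treated U937 DKO.

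The make-up of the family differed between groups. IFIT3 gave 60.2% ± 1.79 (SD, n = 3) of the summed level per kilobase in TPA-treated U937 sgControl, 42% ± 0.21 in SKO and 36.5% ± 0.107 in DKO. The IFIT2 share was 17.8% ± 1.42, 16.6% ± 0.402 and 35% ± 0.571 in these groups. The IFIT5 share was 9.57% ± 1.63, 8.68% ± 0.0741 and 2.09% ± 0.0509, although its level was highest in DKO. In THP-1 SKO the IFIT5 share was 31.2% ± 2.38 and the IFIT1 share 5.67% ± 4.31, against 11.8% ± 1.97 and 26.8% ± 0.956 in THP-1 sgControl. OCI-AML-3 had the largest IFIT3 shares, 62.8% ± 6.96 in sgControl and 69.6% ± 1.48 in DKO (SD, n = 2). These shares are described without a test.

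**Figure D2:**
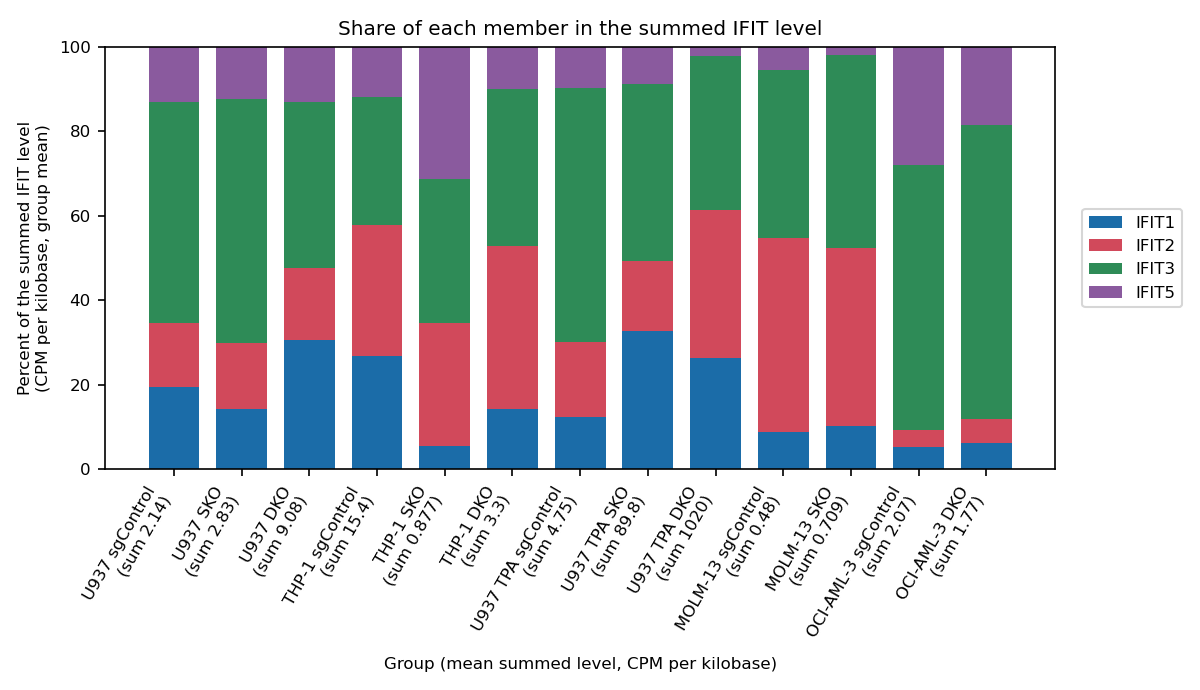
Share of each IFIT gene in the summed IFIT level (percent of CPM per kilobase, mean over libraries), with the mean summed level under each group name. IFIT5 takes 2.09% in TPA-treated U937 DKO and 31.2% in THP-1 SKO, where the sum is low.

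In untreated U937 the comparison asks what each guide set changed in unstimulated cells. All 4 members rose in DKO, and 1 of 4 rose in SKO. IFIT1 was at 2.47, 1.89 and 1.48 CPM in sgControl, 2.25, 1.71 and 1.64 in SKO, and 12.1, 12.6 and 13.7 in DKO. The SKO and sgControl libraries of IFIT1 overlapped, and every DKO library lay above both. IFIT3 was at 5.85, 5.64 and 5.48 CPM in sgControl, 7.29, 8.39 and 9.15 in SKO, and 17.6, 17.6 and 19.1 in DKO. Here no libraries overlapped between any of the groups.

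In SKO against sgControl, IFIT3 was higher by 0.54 ± 0.11 (log2 fold change ± SE, adjusted p = 6.1e-05), and 30.7% of all genes tested were higher. IFIT1 differed by -0.07 ± 0.18 with a 95% interval of -0.45 to 0.31. IFIT2 differed by 0.40 ± 0.20 (adjusted p = 0.089) and IFIT5 by 0.37 ± 0.22 (adjusted p = 0.14), and neither passed. IFIT2 did pass when U937 sgControl replicate 1 was left out (0.56, adjusted p = 0.033), when SKO replicate 3 was left out (0.52, adjusted p = 0.036), and with scaling on chromosome 10 genes alone (0.47, adjusted p = 0.047).

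In DKO against sgControl the rises were 2.70 ± 0.15 for IFIT1, 2.21 ± 0.18 for IFIT2, 1.67 ± 0.10 for IFIT3 and 2.12 ± 0.20 for IFIT5, with adjusted p between 2.9e-15 and 1.2e-10. Of all genes tested 33.2% were higher. IFIT2, the partner of IFIT1 and IFIT3 in the IFIT complex, went from 1.42 ± 0.316 to 6.66 ± 0.409 CPM (SD, n = 3), and IFIT5 from 1.19 ± 0.171 to 5.21 ± 0.434. DKO also exceeded SKO for all 4 members, by 2.77 ± 0.16 for IFIT1, 1.81 ± 0.18 for IFIT2, 1.13 ± 0.10 for IFIT3 and 1.75 ± 0.19 for IFIT5 (adjusted p of at most 1.1e-08), with 24.1% of genes tested higher. These comparisons share their libraries. Of 8 other genes tested within 500 kb of the cluster, 1 was higher in DKO than in sgControl and 2 were lower (median -0.24). The summed myeloid markers were 660 to 671 CPM in sgControl, 1250 to 1270 in SKO and 1220 to 1280 in DKO, and their part in the result was not tested.

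In THP-1 every member fell in both SKO and DKO. The level in the sgControl group was already high: THP-1 sgControl exceeded U937 sgControl by 3.26 ± 0.19 for IFIT1, 3.84 ± 0.15 for IFIT2, 2.04 ± 0.15 for IFIT3 and 2.73 ± 0.22 for IFIT5. The column names mark THP-1 sgControl as a clone and give it another code than U937 sgControl. Line, clone and code cannot be told apart here. Between these lines 42.3% of genes tested were higher in THP-1, and the median over all genes was 0.13. IFIT1 was at 18.8, 20.3 and 18.2 CPM in THP-1 sgControl, 0.305, 0.0346 and 0.358 in SKO, and 3.02, 1.55 and 2.02 in DKO. The groups did not overlap, and the SKO values rest on 2 to 20 reads per library. IFIT2 was at 20.3, 21.6 and 20.5 CPM in sgControl, 0.953, 1.07 and 1.11 in SKO, and 6.04, 4.67 and 5.72 in DKO, again with no overlap.

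In SKO against sgControl the log2 fold change was -6.36 ± 0.25 for IFIT1, -4.30 ± 0.13 for IFIT2, -3.91 ± 0.18 for IFIT3 and -2.71 ± 0.22 for IFIT5, and 22.8% of genes tested were lower. The adjusted p-values were 6.1e-19, 7.7e-22, 1.8e-17 and 1e-11. IFIT3 was at 24.3, 23.4 and 23.1 CPM in sgControl and 0.991, 1.31 and 2.36 in SKO. Ordered from the highest fold change to the lowest, IFIT1 was at place 18566 and IFIT2 at place 18538 of 18585 genes tested. In DKO against sgControl IFIT1 fell by 3.00 ± 0.19 on the log2 scale, and the values were -1.82 ± 0.11 for IFIT2, -1.81 ± 0.16 for IFIT3 and -2.41 ± 0.22 for IFIT5 (adjusted p of at most 7.8e-11), and 33.7% of genes tested were lower.

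DKO stood above SKO in THP-1 for 3 of 4 members, by 3.36 ± 0.31 for IFIT1, 2.48 ± 0.14 for IFIT2 and 2.10 ± 0.19 for IFIT3 (adjusted p of at most 1.3e-10), with 25.3% of genes tested higher. IFIT5, at 0.915, 0.934 and 1.79 CPM in SKO and 1.51, 1.66 and 1.05 in DKO, overlapped between the groups. Its difference of 0.30 ± 0.25 did not pass (adjusted p = 0.31, 95% interval -0.20 to 0.81), though it did without SKO replicate 3 (0.69, adjusted p = 0.024).

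Genes of chromosome 10 had a lower median than all genes in the THP-1 libraries labelled SKO and DKO. The median log2 fold change of its genes was -0.93 in SKO and -0.92 in DKO, against medians over all genes of 0.01 and 0.05. Of 659 chromosome 10 genes tested, 473 were lower in SKO and 439 in DKO. Within 500 kb of the IFIT cluster 8 other genes were tested, of which 6 were lower in SKO (median -1.12) and 4 in DKO (median -0.82). LIPA, the lysosomal acid lipase gene on the opposite strand, which spans IFIT2, IFIT3 and IFIT1, was at -1.54 ± 0.04 in SKO and -1.55 ± 0.05 in DKO. KIF20B, a kinesin gene, was at -0.96 ± 0.05 in SKO. The summed myeloid markers were 1210 to 1280 CPM in THP-1 sgControl, 1320 to 1380 in SKO and 1620 to 1640 in DKO. Of these LYZ was at 92.2, 268 and 479 CPM in that order, and CSF1R at 193, 277 and 271. SPI1 was at 239, 220 and 174 CPM, and CEBPA at 172, 166 and 118. The 3 megakaryocyte markers summed to 1.16 to 1.42 CPM in sgControl, 6.32 to 8.29 in SKO and 4.69 to 6.67 in DKO. Of these GP9 was at 0.498, 6.28 and 3.38 CPM, ITGA2B at 0.769, 0.717 and 2.59, and PF4 was at 0 in all 3 groups. The share of mitochondrial reads was 5.67 to 6.14% in sgControl and SKO and 5.05 to 5.18% in DKO. The part of these in the THP-1 results was not tested.

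With the libraries scaled on chromosome 10 genes alone, all 4 members were still lower in both THP-1 comparisons. The SKO differences became -5.43 ± 0.27 for IFIT1, -3.37 ± 0.14 for IFIT2, -2.98 ± 0.19 for IFIT3 and -1.78 ± 0.22 for IFIT5. The DKO differences became -2.05 ± 0.20 for IFIT1, -0.86 ± 0.11 for IFIT2, -0.86 ± 0.16 for IFIT3 and -1.45 ± 0.23 for IFIT5.

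**Figure D3:**
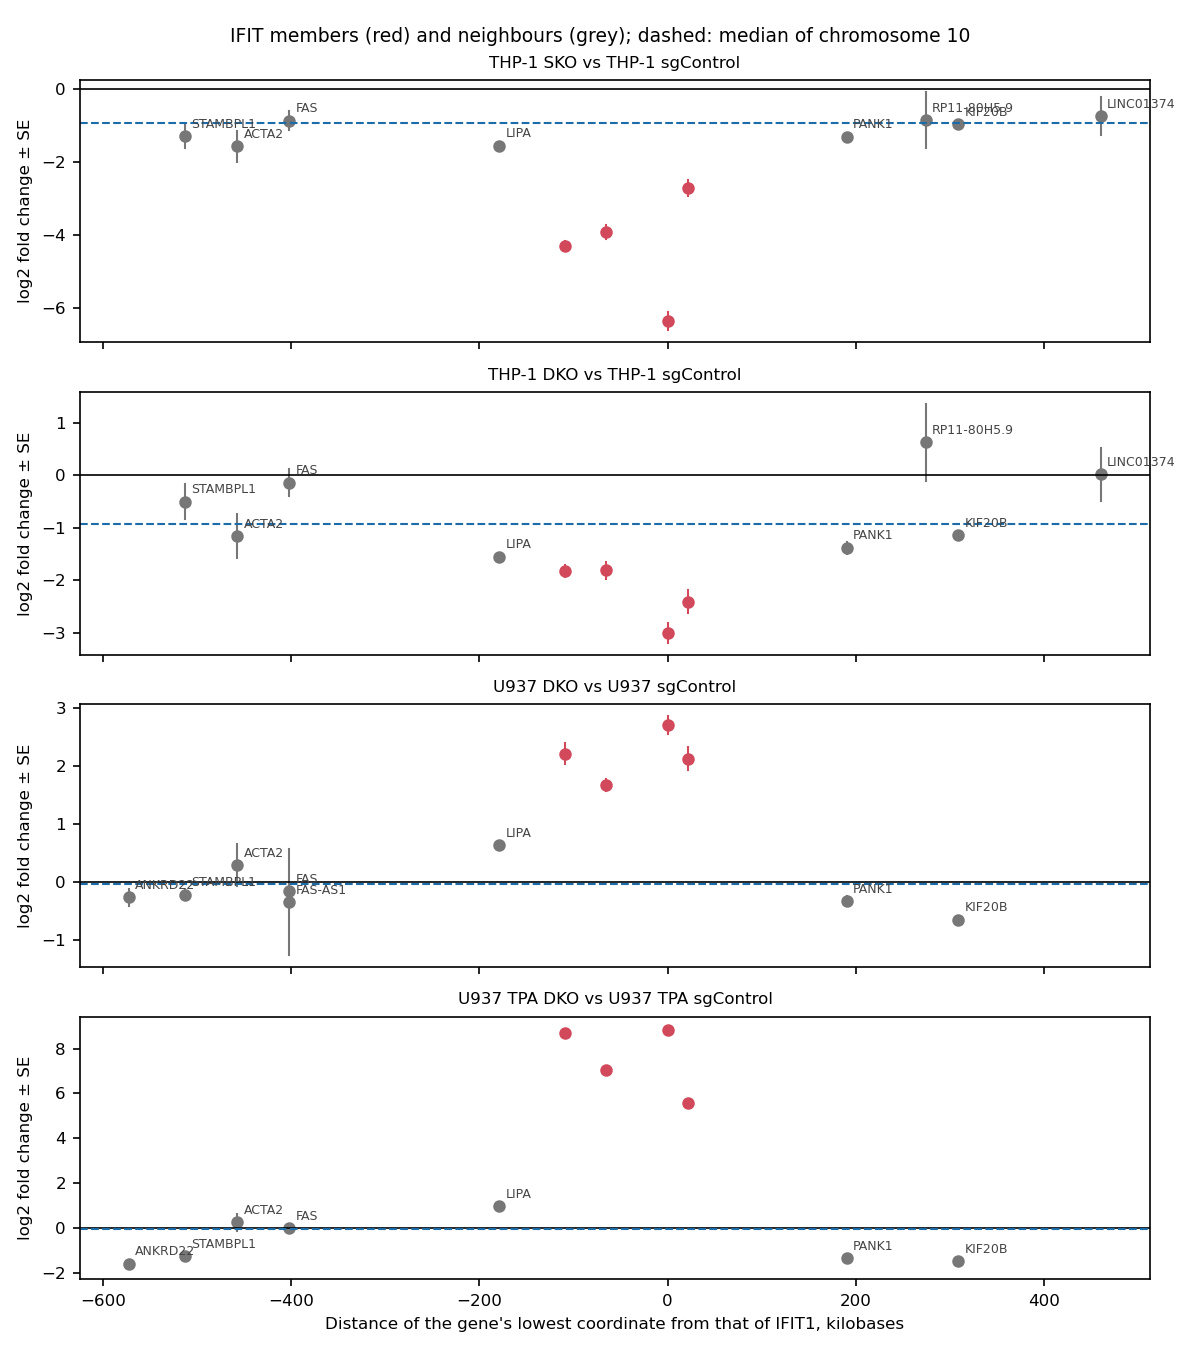
Log2 fold change (± SE) of the IFIT members (red) and of the other genes tested within 500 kb of the cluster (grey), by distance of their lowest coordinates from that of IFIT1 in kilobases; the dashed line is the median of chromosome 10 genes. IFIT1B, tested only with TPA here (8.11 ± 1.01 in DKO, on few reads), is left out. In THP-1 SKO the neighbours lie between -1.56 and -0.73 and the IFIT genes below them. For U937 DKO with and without TPA the IFIT genes stand above the neighbours shown.

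The effects of the guides on the IFIT genes differed between U937 and THP-1 by a direct test. The SKO effect in U937 exceeded that in THP-1 by 6.30 ± 0.37 for IFIT1, 4.71 ± 0.24 for IFIT2, 4.46 ± 0.23 for IFIT3 and 3.09 ± 0.33 for IFIT5, with 24.1% of genes tested higher. For the DKO effect the differences were 5.74 ± 0.27, 4.07 ± 0.20, 3.52 ± 0.21 and 4.57 ± 0.32 in the same order of genes, with 29.7% higher. By the column names the DKO groups of the lines had different SUV39H2 guides, so line and that guide cannot be told apart here. All 8 adjusted p-values were at most 6.4e-10. Scaling on chromosome 10 genes left differences of 2.24 to 5.45 for SKO and 2.60 to 4.82 for DKO.

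In MOLM-13 1 of the 2 members that could be tested was called, and in OCI-AML-3 1 of 4 was, neither in every alternative. In MOLM-13 IFIT1 (6 and 12 reads in sgControl, 24 and 4 in SKO) and IFIT5 (4 and 6 reads, then 0 and 4) were too low to be tested. IFIT3 was at 0.858 and 1.01 CPM in sgControl and 1.6 and 1.62 in SKO, higher by 0.79 ± 0.31 (adjusted p = 0.026), with 31.8% of genes tested higher. That call was lost with DESeq2 (0.79, adjusted p = 0.094) and without MOLM-13 sgControl replicate 1 (0.69, adjusted p = 0.11), SKO replicate 1 (0.79, adjusted p = 0.077) or SKO replicate 2 (0.80, adjusted p = 0.079). IFIT2 overlapped between the groups and differed by 0.38 ± 0.36 (adjusted p = 0.37), though without sgControl replicate 2 it passed (1.09, adjusted p = 0.037). The summed myeloid markers were 1670 to 1750 CPM in MOLM-13 sgControl and 8940 to 9090 in SKO. Of these LYZ was at 581 and 7610 CPM, and MPO, the only one lower in SKO, at 352 and 119. The share of mitochondrial reads was 7 to 7.44% in sgControl and 9.39 to 9.49% in SKO. The part of these in the result was not tested.

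In OCI-AML-3 IFIT5, the binder of triphosphate RNA, was at 2.63 and 2.38 CPM in sgControl and 1.49 and 1.36 in DKO, a log2 fold change of -0.80 ± 0.23 (adjusted p = 0.0033). Of all genes tested 25.6% were lower. The call was lost without DKO replicate 1 (-0.88, adjusted p = 0.052) or DKO replicate 2 (-0.73, adjusted p = 0.073). IFIT1 differed by 0.08 ± 0.47, IFIT2 by 0.27 ± 0.50 and IFIT3 by -0.07 ± 0.14, none past the test. The summed myeloid markers were 1010 to 1060 CPM in sgControl and 2010 to 2030 in DKO. Of these LYZ was at 234 and 1090 CPM, CEBPA at 170 and 135, and MPO at 1.79 and 1.16. The share of mitochondrial reads was 6.56 to 6.68% in sgControl and 7.56 to 7.85% in DKO. The part of these in the result was not tested. The 95% intervals of IFIT1 (-0.86 to 1.03) and IFIT2 (-0.74 to 1.27) are wide, and these genes had 16 to 32 reads per library.

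**Figure D4:**
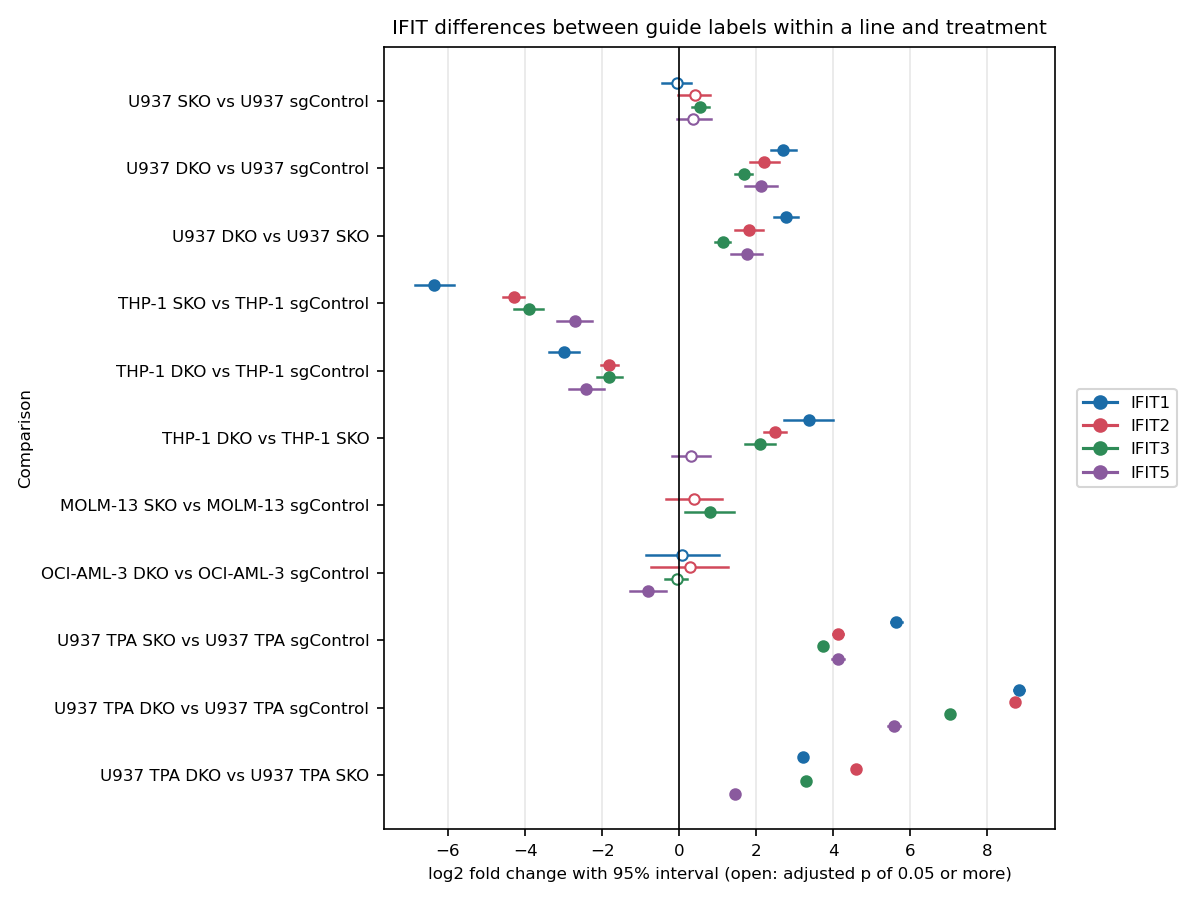
Log2 fold change with 95% interval of each IFIT gene in the 11 comparisons of guide labels within a line and treatment; filled points passed an adjusted p of 0.05 and open points did not. The U937 DKO and all TPA-treated U937 values lie above 0, the THP-1 values against sgControl lie below 0, and the MOLM-13 and OCI-AML-3 values lie between -0.80 and 0.79.

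After TPA the IFIT genes rose in both SKO and DKO of U937, to the highest levels of the series in DKO. IFIT1 was at 3.43, 2.51 and 2.28 CPM in TPA-treated sgControl, 134, 136 and 136 in SKO, and 1230, 1190 and 1300 in DKO. IFIT2 was at 4, 3.96 and 3.05 CPM in sgControl, 66.1, 65 and 62.3 in SKO, and 1500, 1550 and 1590 in DKO. IFIT3 was at 14.9, 15.1 and 13.5 CPM in sgControl, 193, 191 and 189 in SKO, and 1850, 1840 and 1950 in DKO. The 3 levels did not overlap for these genes, and the libraries of a group lay close together.

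IFIT5 was at 1.95, 1.78 and 2.18 CPM in TPA-treated sgControl, 33.9, 34.4 and 33.9 in SKO, and 91.5, 93.2 and 93.7 in DKO. It too was separated in all 3 groups, but its step from SKO to DKO was the smallest of the family. In the DKO libraries the members rested on 2987 to 66249 reads each.

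SKO exceeded sgControl by 5.63 ± 0.07 for IFIT1, 4.13 ± 0.06 for IFIT2, 3.73 ± 0.04 for IFIT3 and 4.12 ± 0.08 for IFIT5 (adjusted p of at most 6.5e-25), with 25.8% of genes tested higher. For DKO against sgControl the values were 8.83 ± 0.07, 8.72 ± 0.06, 7.03 ± 0.04 and 5.57 ± 0.07 in that order (adjusted p of at most 4.8e-29), with 34.1% higher. As ratios, IFIT1 was 454-fold and IFIT2 421-fold higher, against 131-fold for IFIT3 and 47.5-fold for IFIT5. DKO exceeded SKO by 3.20 ± 0.04 for IFIT1, 4.59 ± 0.04 for IFIT2, 3.30 ± 0.04 for IFIT3 and 1.45 ± 0.05 for IFIT5, with 31.3% higher. The 95% interval of IFIT2 in this last comparison (4.50 to 4.67) lies above and that of IFIT5 (1.35 to 1.56) below those of IFIT1 (3.11 to 3.29) and IFIT3 (3.23 to 3.38), which overlap.

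In these bulk libraries a change in how many cells express an IFIT gene and a change in the RNA per cell cannot be told apart. The share of reads from mitochondrial genes was 2.8 to 2.93% in TPA-treated DKO and 5.17 to 6.14% in the other TPA-treated libraries, and its part in the result was not tested. The summed myeloid markers were 1350 to 1370 CPM in TPA-treated sgControl, 1290 to 1320 in SKO and 1590 to 1640 in DKO. Of these LYZ was at 634, 194 and 162 CPM in that order, PTPRC at 317, 522 and 618, and ITGAM at 98.4, 162 and 330. The part of these markers in the result was not tested. CLEC4C and LILRA4, defining markers of the plasmacytoid dendritic cell, a strong producer of interferon, were at 0 in all TPA-treated DKO libraries. IL3RA, the remaining marker of that list, had no counted reads in any group of the series and so does not separate them. Whether its RNA was absent or its reads went uncounted was not tested. Neighbouring LIPA was higher in TPA-treated DKO than in sgControl by 0.98 ± 0.04, and KIF20B differed by -1.50 ± 0.05. The paralog IFIT1B had 25 to 39 reads in TPA-treated DKO, 6 to 12 in SKO and 0 in sgControl, and since it and IFIT1 are related genes, so low a count is uncertain.

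The response to TPA itself depended on the guide label. In sgControl TPA raised IFIT2 by 1.37 ± 0.13, IFIT3 by 1.36 ± 0.07, IFIT5 by 0.73 ± 0.15 and IFIT1 by 0.49 ± 0.15, with 34.6% of genes tested higher. IFIT1 was the least certain of these (adjusted p = 0.004): its TPA and untreated libraries overlapped, and without TPA-treated sgControl replicate 1 the call was lost (0.30, adjusted p = 0.096). In SKO the rises were 6.20 ± 0.09 for IFIT1, 5.11 ± 0.08 for IFIT2, 4.57 ± 0.05 for IFIT3 and 4.49 ± 0.10 for IFIT5, with 31.5% higher. In DKO they were 6.64 ± 0.07 for IFIT1, 7.90 ± 0.06 for IFIT2, 6.74 ± 0.05 for IFIT3 and 4.20 ± 0.08 for IFIT5, with 36.9% higher.

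The guide effect with TPA exceeded the one without for all 4 members. For SKO the excess was 5.71 ± 0.21 for IFIT1, 3.74 ± 0.19 for IFIT2, 3.20 ± 0.10 for IFIT3 and 3.76 ± 0.20 for IFIT5, with 19.6% of genes tested higher. For DKO it was 6.15 ± 0.20, 6.53 ± 0.20, 5.38 ± 0.10 and 3.46 ± 0.19 in that order, with 21.7% higher. The 8 adjusted p-values were at most 2.3e-17. The treated and untreated U937 libraries come from separate deposited tables, and table and treatment cannot be told apart.

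Among the interferons, which would act upstream of the IFIT genes, TPA-treated U937 DKO had by far the most reads. Each library of that group had 81 to 102 reads of IFNB1, 83 to 102 of IFNL1, a type III interferon, and 32 to 42 of IFNA2. Outside it IFNB1 reached at most 10 reads, in TPA-treated SKO, IFNL1 at most 2, and IFNA2 had 0 in every library. By counting error alone, 0 reads allow up to 3 independent fragments, and more reads than that where both reads of a pair were counted. In untreated U937 DKO, where all 4 members rose, IFNB1 and IFNA2 had 0 reads and IFNL1 0 to 2. In THP-1 sgControl IFNB1 had 0 to 3 reads. Interferon RNA in the untreated groups was at or near the limit of detection at this depth.

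The receptor and signalling genes of the interferon pathway were a list of 9. Of 8 tested, 7 rose in U937 DKO (median 1.00) and 6 in TPA-treated DKO (median 0.81), each against sgControl. STAT2, which takes part in binding the ISRE, rose by 3.97 ± 0.05 in TPA-treated DKO. In THP-1 SKO 3 of 8 fell and 1 rose (median -0.29), and in THP-1 DKO 2 fell and 4 rose (median 0.19). Of all genes tested 33.2% were higher in U937 DKO and 34.1% in TPA-treated DKO, and 22.8% were lower in THP-1 SKO and 33.7% in THP-1 DKO. IRF7, an interferon-induced regulator, rose by 3.24 ± 0.12 in U937 DKO and by 4.84 ± 0.07 in TPA-treated DKO, and differed by -2.50 ± 0.10 in THP-1 SKO.

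Of 9 RNA sensing genes tested with TPA, 7 were higher and 1 lower in SKO than in sgControl (median 1.71), and 8 were higher and 1 lower in DKO (median 2.97). Of all genes tested with TPA, 25.8% were higher in SKO and 34.1% in DKO. In TPA-treated DKO TLR3, an endosomal sensor of double-stranded RNA, rose by 4.64 ± 0.20, DDX58, which encodes RIG-I, by 4.37 ± 0.22, and IFIH1, which encodes MDA5, by 4.09 ± 0.04. The feedback list of ISG15, USP18, SOCS1 and SOCS3 had 2 of 4 higher in TPA-treated SKO and 4 of 4 in DKO, where ISG15 rose by 7.02 ± 0.06 and USP18 by 5.89 ± 0.07. The cap synthesis list held 7 genes, among them CMTR1, which adds the ribose methyl group that shields messenger RNA from IFIT1. CMTR1 rose by 1.64 ± 0.04 in U937 DKO, 2.10 ± 0.04 in TPA-treated SKO and 3.29 ± 0.04 in TPA-treated DKO. It also rose by 1.45 ± 0.04 in untreated U937 SKO, where IFIT1 differed by -0.07 ± 0.18. For THP-1 SKO its difference was -0.39 ± 0.05, and for THP-1 DKO it was -0.42 ± 0.05. In TPA-treated DKO 2 of these 7 were higher and 3 lower, with a median of -0.02.

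The other interferon-stimulated genes were a list of 34, chosen by name. Of 27 tested in U937 DKO, 23 were higher and 2 lower (median 1.47, members 2.17, all genes -0.01). Of 34 tested in THP-1, 34 were lower in SKO (median -1.62, members -4.11, all genes 0.01), and 31 were lower and 1 higher in DKO (median -1.07, members -2.12). The members lie on chromosome 10, whose genes had medians of -0.93 in THP-1 SKO and -0.92 in THP-1 DKO. The part of this in the gap between members and list was not tested. Of 32 tested with TPA, 30 were higher in SKO (median 3.04, members 4.12) and 32 in DKO (median 5.32, members 7.88, all genes -0.05). In U937 SKO 17 of 27 were higher and 2 lower (median 0.56, members 0.39), and in OCI-AML-3 DKO 7 of 29 were higher and 8 lower (median -0.09). In MOLM-13 SKO 19 of 29 were higher and 6 lower (median 0.56, the 2 members tested 0.58). The shares of all genes called higher were 33.2% in U937 DKO, 30.7% in U937 SKO, 31.8% in MOLM-13 SKO, 25.8% in TPA-treated SKO and 34.1% in TPA-treated DKO. The shares called lower were 22.8% in THP-1 SKO, 33.7% in THP-1 DKO and 25.6% in OCI-AML-3 DKO, where the count of the list is near that share.

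**Figure D5:**
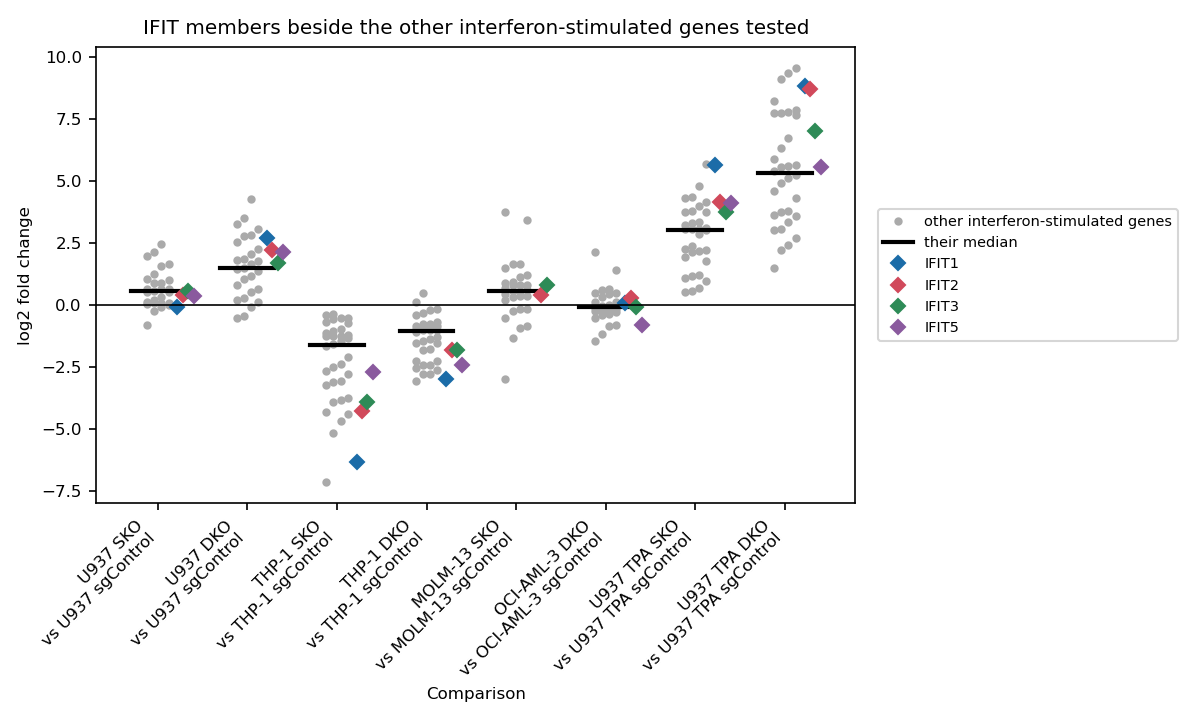
Log2 fold change of each IFIT gene (coloured diamonds) beside the other interferon-stimulated genes tested (grey points, with their median as a bar) in 8 comparisons with sgControl. In THP-1 SKO all 4 members lie below the median of -1.62, and in TPA-treated U937 DKO all 4 members lie above the median of 5.32. The members are on chromosome 10, whose genes had a median of -0.93 in THP-1 SKO and -0.92 in THP-1 DKO.

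By the mean log2 CPM over the 13 groups, the genes most like each member were compared among 10805 genes, as a description without a test, since groups share lines and controls. IFIT1 was most like OASL (Pearson r = 0.975), IFIT3 (0.970) and IFI6 (0.961). IFIT3 was most like OASL (0.972) and IFIT1 (0.970). IFIT2 was most like PARP9 (0.977), DTX3L (0.973) and PARP14 (0.973). IFIT5 was most like ADAR (0.970), an RNA-editing enzyme, SGTB (0.948) and GFPT1 (0.940). Within the family it was closest to IFIT3 (0.904, place 13 among all genes), then IFIT1 (0.877, place 33) and IFIT2 (0.771, place 314). The values of IFIT5 rest on 4 and 6 reads in MOLM-13 sgControl and 0 and 4 in SKO.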

How the data were processed

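RNA-seq counts of 35 libraries in 2 deposited tables were used. Per the submitters' processing notes the authors used fastp 0.23.4, STAR 2.7.11b and featureCounts of Subread 2.0.6 on hg38. Per the file headers of the untreated U937 and THP-1 table, reads were counted over exons of GENCODE 38 by gene name, without strand, each read of a pair on its own, leaving out multi-mapped reads and reads shared by genes; the counting command of the other table is not given in the sources used here. IFIT2 shares 12.1% of its exon bases with RP11-149I23.3 and 1.5% with LIPA, and IFIT3 shares 1.9% with LIPA.

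Counts as deposited were tested with edgeR 4.0.16 (R 4.3.3) after its expression filter. SEs are the log2 fold change over the root of the F statistic. Lists were not tested as sets. The scripts were tested on simulated data. Named genes were the members, the targets, neighbours within 500 kb, up to 3 leading genes per list, and the 3 genes most like each member; 1 gene that this rule names is not reported here. The members and lists were chosen with earlier results of these data known. Same-numbered replicates did not deviate together, and no 2 libraries were identical. Alternatives were DESeq2 1.42.0, other scalings, no filter, a replicate block, fewer groups and each library left out.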

Additional observations from a re-analysis of the deposited data

Results flagged for a closer look

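The effect of the guides on each IFIT gene differed between settings by a test of the difference itself (edgeR's quasi-likelihood test, Benjamini-Hochberg adjustment over all genes). With TPA, the SKO effect in U937 exceeded the untreated one by 5.71 for IFIT1, 3.74 for IFIT2, 3.20 for IFIT3 and 3.76 for IFIT5 on the log2 scale. For the DKO effect the same differences were 6.15, 6.53, 5.38 and 3.46. Between lines, the SKO effect in U937 exceeded that in THP-1 by 6.30 for IFIT1, 4.71 for IFIT2, 4.46 for IFIT3 and 3.09 for IFIT5, and the DKO effect by 5.74, 4.07, 3.52 and 4.57. The first pair of contrasts shares the U937 libraries and the second shares the untreated ones, so these 16 values are not independent. For all 4 genes DKO was higher than sgControl in U937 and lower in THP-1. TPA and deposited table, and line and clone, cannot be told apart in these contrasts. For the DKO effect between lines, the same holds for line and SUV39H2 guide.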

How the results depend on the processing

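Of 978 values of single members under an alternative, 959 kept their direction and side of the threshold, 5 passed newly, 7 no longer passed and 7 changed sign, all of the last among differences that had not passed. In U937 SKO the IFIT1 difference was 0.00 with scaling on chromosome 10 genes and ran from -0.23 to 0.15 with 1 library left out. The count of members called there was 2 with that scaling and 1 to 2 with 1 library left out. In MOLM-13 SKO the count of members called was 0 with DESeq2 and 0 to 2 with 1 library left out, where IFIT2 ran from -0.07 to 1.09. In OCI-AML-3 DKO, with 1 library left out, the members called were 0 to 1 and the genes called 5020 to 6214 (8065 with all libraries), IFIT1 ran from -0.40 to 0.45 and IFIT3 from -0.27 to 0.13. These lone libraries were assumed to vary like the other group, and the cause of the changes was not tested. Scaling on chromosome 10 genes called 14638 genes in THP-1 SKO against 8081, since it moves all other chromosomes by the lowered median of that one. The replicate block changed no call of a member and, for example, gave 9239 genes called in U937 SKO against 9228. Levels without the scaling between libraries were 0.899 to 1.14 times those given. A term for a code shared by 3 untreated U937 libraries, chosen after seeing the data, changed no call. Depth limits IFIT1 and IFIT5 in MOLM-13 and IFIT1 and IFIT2 in OCI-AML-3.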
